A study of Mus musculus and Homo sapiens with 21 samples.

Results

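Human embryonic stem cells of the H9 line were compared after growth beside mouse stem cells with or without doxycycline (dox), in 3 libraries of each kind. H9 is an established primed pluripotent line, and its partners in the dish were mouse epiblast stem cells of the C57BL/6 strain. The genes described are those that carry a symbol and reached a CPM (count scaled to the library total) of 10 or more in at least 3 of the 6 co-culture libraries. The rule was met by 10184 of the 62754 genes in the human table, and 42361 of all genes carry a symbol. Of the 10184 genes, 9082 reached 10 CPM in all 6 libraries, 138 reached it in dox libraries alone, 219 in dox-free libraries alone and 745 in some libraries of both groups. Another 154 genes met the level and have no symbol.

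The tested cultures were human cells in co-culture with dox, and their controls were human cells in co-culture without dox. A further 3 libraries came from human cells grown separately without dox, and no separate human culture with dox was analysed here. All cultures grew on mouse embryonic fibroblast feeders in NBFR medium and were compared at day 4. The seeding ratio of mixed dishes was 4 human cells to 1 mouse cell. The series names dox-induced expression of Cas13, an RNA-guided RNA nuclease, in stable lines, with readouts in the mouse cells and in the human cells beside them. The labels name no guide or target and state no transgene in the human cells. An effect of dox itself on the human cells and an effect of its action on their mouse neighbours cannot be told apart with these groups.

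Human embryonic stem cells keep primed pluripotency through FGF and activin or NODAL signalling, and BMP, WNT and stronger NODAL signalling draw them toward mesoderm, endoderm or amnion. They rely heavily on glycolysis, which hypoxia-inducible factor (HIF) raises further when oxygen is scarce. Amino acid shortage and mitochondrial stress act through the transcription factor ATF4, which turns on amino acid synthesis and import. When stem cells of different species share a dish, one can outgrow or eliminate the other, a setting known as cell competition.

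The deposited values, taken as estimated read counts, summed to 117.56, 139.03 and 124.41 M in the dox libraries, against 143.18, 157.32 and 126.85 M in the dox-free libraries. The median gene had an SD of 0.101 in log2 CPM between the dox libraries and 0.122 between the dox-free libraries. The first principal component held 66.7% of the variance, with scores of 2.2 to 7.9 for the dox libraries, -42.5 to -34.3 for the dox-free libraries and 31.5 to 34.8 for the separate cultures. On that axis the dox co-cultures lay between the other groups. On the second, with 16.8% of the variance, they lay apart from both, at 19.9 to 21.2, against -13.0 to -5.3 for the dox-free and separate libraries together. The labels do not say whether the replicates were separate cultures, so p-values measure the spread between these libraries, which may be technical.

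Expression differed between dox and dox-free co-cultures across much of the transcriptome, mostly by modest folds. In edgeR's quasi-likelihood test with Benjamini-Hochberg adjustment over all 24165 genes tested, 6681 genes (27.6%) had an adjusted p under 0.05. Of these, 3449 (14.3%) were higher and 3232 (13.4%) lower with dox. Among the 10184 expressed genes, 5042 (49.5%) were called, 2746 higher (27%) and 2296 lower (22.5%). Which direction held more calls depended on the scaling and filter, with 2447 higher and 2514 lower under upper quartile scaling and 2679 higher and 2749 lower under a filter of 10 CPM in 3 libraries. The 9082 genes at 10 CPM in all 6 libraries had a like share, with 4436 called (48.8%). A call combined with a change of 2-fold or more was less common, at 147 genes higher (1.44%) and 374 lower (3.67%). All 3 dox values lay above all 3 dox-free values for 3348 of the expressed genes (32.9%) and below them for 2510 (24.6%). The median log2 fold change of the expressed genes was 0.04, with quartiles of -0.24 and 0.30, and every list below is read against these values. A gene that met the level rule through 1 group alone had to differ, so such members are named where a list holds them. Tested against a fold of 1.5 in place of 1, the count fell to 752 genes, 269 higher (2.64%) and 483 lower (4.74%).

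**Figure D1:**
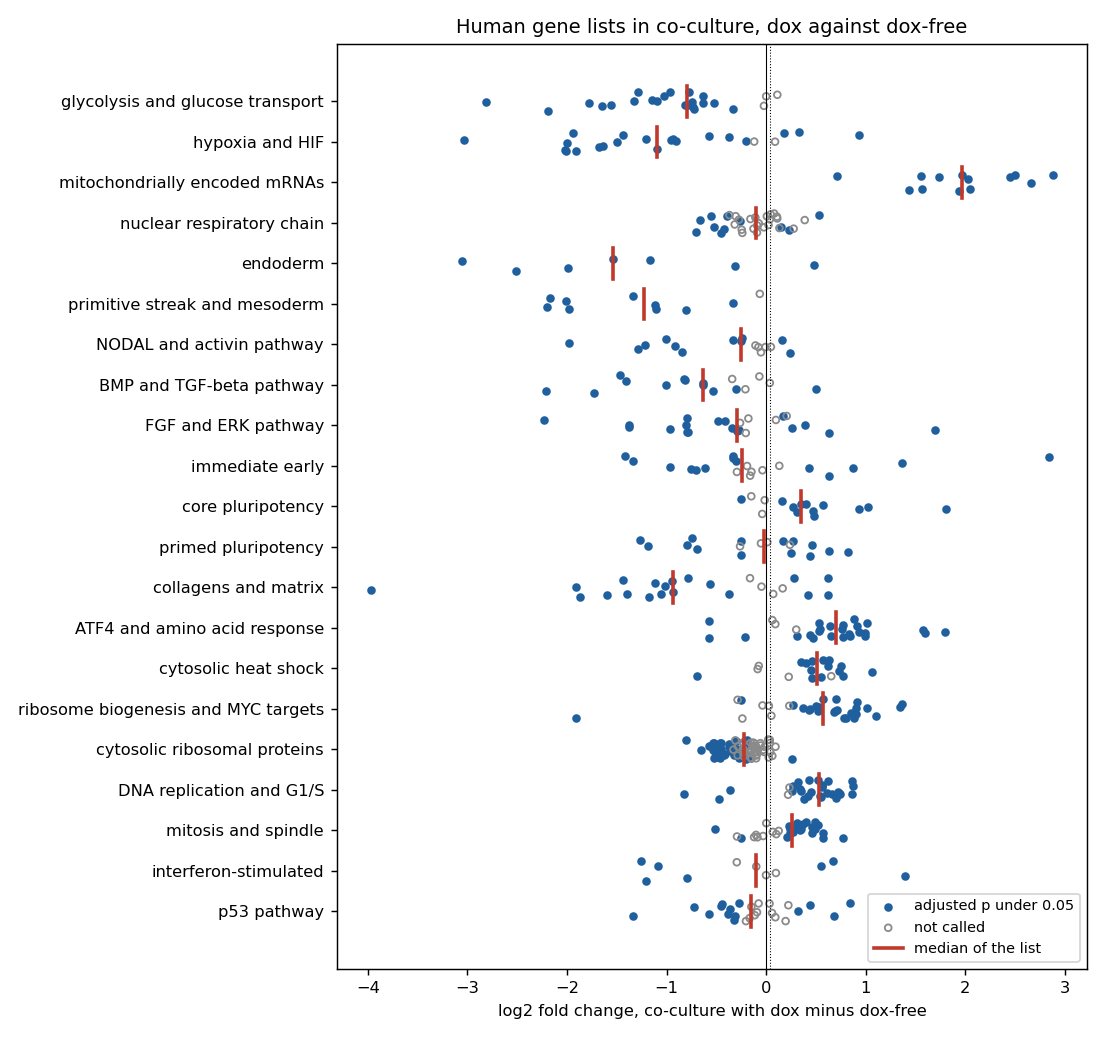
Log2 fold change (co-culture with dox minus dox-free) of every expressed gene in 21 gene lists, 1 point per gene, filled where the adjusted p is under 0.05, with the list median as a bar and the median of all 10184 expressed genes (0.04) as a dotted line. Glycolysis, hypoxia, endoderm, streak and matrix genes lie mostly left of zero, and mitochondrial mRNAs, ATF4 targets, replication and ribosome biogenesis genes lie mostly right of it.

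Genes of glycolysis and of the hypoxia response were lower with dox. Of 24 glycolysis and glucose transport genes, 21 fell, none rose and 3 were not called, with a median log2 fold change of -0.79. Of 23 expressed hypoxia genes, 18 fell, 3 rose and 2 were not called, with a median of -1.09. The summed level of the glycolysis list was 18226, 17994 and 18582 CPM in the dox libraries, against 33647, 31647 and 33597 CPM in the dox-free libraries. It stood at 17330 to 17469 CPM in the separate cultures, below both co-cultures.

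NDRG1, a hypoxia-induced stress gene, had 19.998, 19.6 and 24.04 CPM in the dox libraries, against 154, 164 and 197 CPM in the dox-free libraries. The groups did not overlap, and the level with dox was 8.19-fold lower (log2 fold change -3.03, SE 0.11, adjusted p = 5.81e-09, edgeR). SLC16A3, the exporter that carries lactate out of glycolytic cells, had 61.7, 61.6 and 68.4 CPM in the dox libraries, against 422, 408 and 501 CPM in the dox-free libraries, and was 7.03-fold lower with dox (adjusted p = 2.26e-09, edgeR). All dox values of this exporter lay near the 55.9, 52.6 and 57.2 CPM of the separate cultures. BNIP3, a HIF target that drives removal of mitochondria, had 148, 170.0 and 145 CPM in the dox libraries, against 670.2, 632 and 558 CPM in the dox-free libraries. P4HA1, a prolyl hydroxylase of collagen, had 109, 112 and 104 CPM in the dox libraries, against 427, 427 and 380.0 CPM in the dox-free libraries. For both genes every dox library lay below every dox-free library, with log2 fold changes of -2.02 and -1.94.

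The glucose importer SLC2A3 fell 2.44-fold, with 1359 ± 34.2 CPM with dox, against 3283 ± 137 CPM dox-free (SD, n = 3 each). PGK1, a glycolytic kinase that makes ATP, averaged 831 ± 21.4 CPM with dox, against 2422 ± 213 CPM dox-free (SD, n = 3 each). ENO2, an enolase, was 3.44-fold lower and PFKFB4, which sets the level of a glycolysis activator, 4.58-fold lower with dox. LDHA, which makes lactate, had 437, 439.6 and 406 CPM in the dox libraries, against 1378, 1386 and 1210.2 CPM in the dox-free libraries. LDHB, the subunit that favours the reverse reaction, had 1214, 1384 and 1119 CPM in the dox libraries, against 1161, 1259.8 and 1250.2 CPM in the dox-free libraries, and these values overlapped (log2 fold change 0.00). The monocarboxylate carrier SLC16A1 and the phosphofructokinase PFKM were the other glycolysis genes not called.

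The prolyl hydroxylases that mark HIF for destruction, EGLN1 and EGLN3, are themselves HIF targets and fell, with log2 fold changes of -1.64 and -1.09. The mRNA of HIF1A, the oxygen-regulated subunit, had 304, 286 and 302 CPM in the dox libraries, against 280.5, 249.8 and 250.0 CPM in the dox-free libraries, a rise with a log2 fold change of 0.18 (adjusted p = 0.0347, edgeR). VEGFA, an angiogenic HIF target, also rose, with 62.2, 58.1 and 67.9 CPM in the dox libraries, against 43.8, 50.3 and 53.97 CPM in the dox-free libraries. STC2, a secreted glycoprotein also induced by ATF4, completed the rises in the hypoxia list (0.94), while ADM and AK4 were not called. The fall of the list was therefore not shared by every known HIF target.

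**Figure D2:**
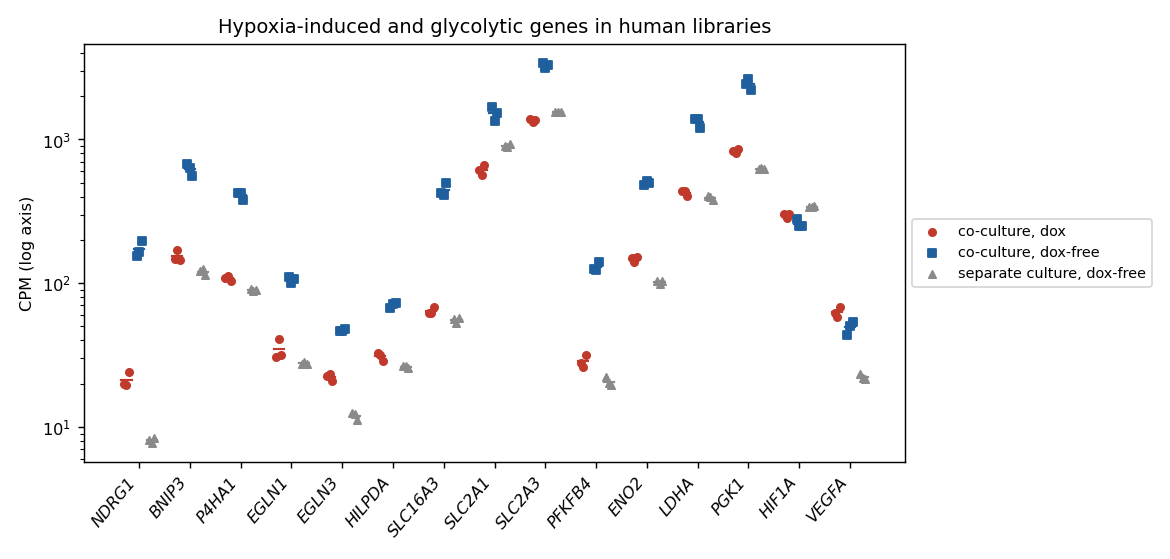
CPM on a log axis of 15 hypoxia and glycolysis genes in the human libraries, 3 points per group with a bar at the mean, for co-culture with dox, co-culture dox-free and separate culture dox-free. Apart from HIF1A and VEGFA, the dox points lie below the dox-free points, as for NDRG1, where the dox libraries hold 19.998, 19.6 and 24.04 CPM.

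All 13 mRNAs encoded in mitochondrial DNA, which specify core subunits of the respiratory chain and ATP synthase, were higher with dox. Their median log2 fold change was 1.97, and their summed level was 62203, 45449 and 55538 CPM in the dox libraries, against 14002, 13733 and 15512 CPM in the dox-free libraries. In the separate cultures the sum was 49590 to 54443 CPM, so the dox-free co-cultures were the low group. All genes named MT- took 6.98%, 5.20% and 6.26% of the counts with dox, against 1.87%, 1.84% and 2.01% dox-free.

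The cytochrome b mRNA MT-CYB had 4834, 3090.4 and 4216 CPM in the dox libraries, against 555, 668 and 675 CPM in the dox-free libraries. MT-CO1, a catalytic subunit of cytochrome oxidase, had 11655, 9255 and 11218 CPM in the dox libraries, against 3599, 3119 and 3968 CPM in the dox-free libraries. Dox replicate 2 was the lowest of its group for both genes, yet it stayed above every dox-free library. The rise was 6.32-fold for MT-CYB and 2.97-fold for MT-CO1 (adjusted p = 5.29e-06 and 3.49e-07, edgeR). MT-ATP8 and MT-ATP6, which share sequence and encode ATP synthase subunits, rose 7.39-fold and 5.64-fold. MT-ND3, a complex I subunit, rose least, with 767, 752 and 779 CPM in the dox libraries, against 422, 500.4 and 458 CPM in the dox-free libraries and a log2 fold change of 0.72.

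Transcripts of the mitochondrial genome did not move as a block. The ribosomal RNA MT-RNR1 had 1089, 912 and 978 CPM in the dox libraries, against 728, 802 and 756 CPM in the dox-free libraries, a log2 fold change of 0.36, and MT-RNR2 one of 0.73. Among 7 expressed tRNA genes, MT-TL1 and MT-TE rose (2.00 and 1.31), MT-TA, MT-TC, MT-TN and MT-TY fell (-1.0, -0.91, -1.05 and -0.60), and MT-TS1 was not called. MT-TL1 met the level rule through dox libraries alone. The tRNA gene MT-TN had 58.1, 57.2 and 55.97 CPM in the dox libraries, against 87.8, 158 and 103 CPM in the dox-free libraries. The 4 falling tRNA genes lie side by side in the mitochondrial genome. The use of strand in counting is not given in the sources, and its part in these values was not tested. Nuclear pseudogene copies may share reads with these genes, and 5 of them were called higher at 2-fold or more, MTATP6P1 with a log2 fold change of 2.49.

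Nuclear genes for the same machinery did not follow. Of 34 nuclear respiratory chain genes, 3 rose, 8 fell and 23 were not called, with a median of -0.10. SDHA, the flavoprotein of complex II, which has no mitochondrially encoded subunit, had 74.2, 81.2 and 80.2 CPM in the dox libraries, against 53.8, 49.2 and 58.5 CPM in the dox-free libraries. NDUFA4, a small cytochrome oxidase subunit, had 240.4, 258 and 225 CPM in the dox libraries, against 331, 454 and 344 CPM in the dox-free libraries. Its dox-free replicate 2 stood well above the other libraries, but the groups did not overlap. Among 25 genes of the mitochondrial ribosome and mitochondrial proteostasis 10 rose, 1 fell and 14 were not called, at a median of 0.18. The chaperone HSPA9 rose 1.71-fold, the mitochondrial RNA polymerase POLRMT 1.39-fold, and TFAM, which packages mitochondrial DNA, had a log2 fold change of 0.34.

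**Figure D3:**
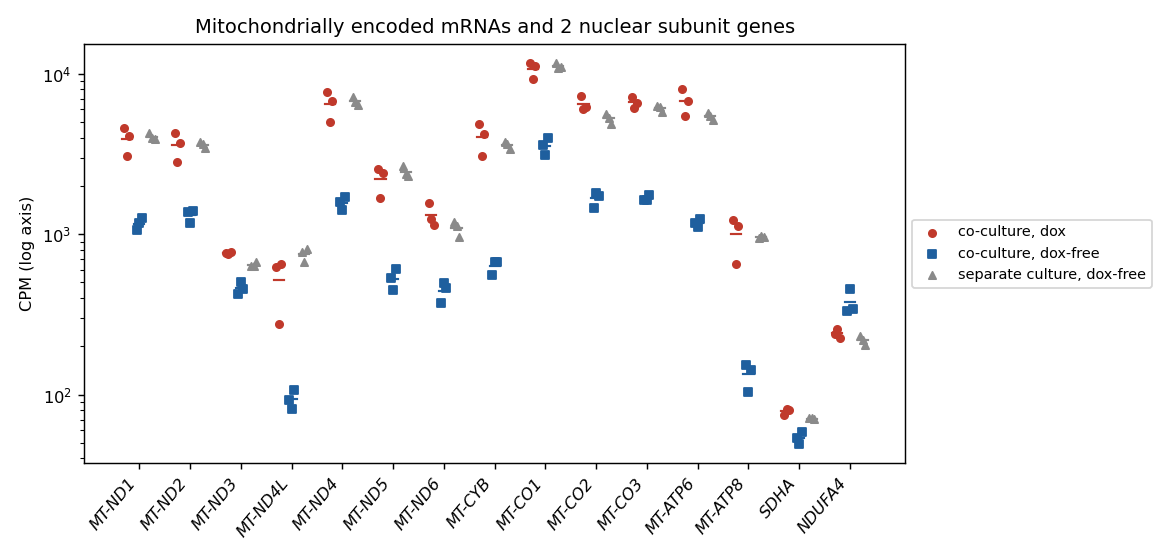
CPM on a log axis of the 13 mitochondrially encoded mRNAs and of the nuclear genes SDHA and NDUFA4 in the human libraries, 3 points per group with a bar at the mean. Every mitochondrial mRNA is higher in each dox library than in each dox-free library, while NDUFA4 lies the other way.

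Markers of primitive streak, mesoderm and endoderm were lower with dox, and core pluripotency genes were mostly higher or not called. Of 10 expressed streak and mesoderm genes, 9 fell, none rose and 1 was not called, with a median log2 fold change of -1.23. GSC met the level rule through dox-free libraries alone, and of the 7 streak and mesoderm genes at 10 CPM in all 6 libraries, 6 fell, with a median of -1.12. Of 7 expressed endoderm genes, 6 fell and 1 rose, with a median of -1.54. PRDM1 met the rule through dox-free libraries alone, and of the 5 endoderm genes at 10 CPM in all 6 libraries, 4 fell and 1 rose. Fewer cells of a type and less RNA per cell cannot be told apart in these bulk libraries. Summed markers of definitive endoderm stood at 132 to 161 CPM with dox, against 520 to 661 CPM dox-free and 98.5 to 107 CPM in separate culture.

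GATA6, a transcription factor of endoderm, had 18.1, 18.95 and 18.7 CPM in the dox libraries, against 106, 107 and 101 CPM in the dox-free libraries. SOX17, another endoderm factor, had 20.1, 20.5 and 21.8 CPM in the dox libraries, against 75.003, 89.8 and 80.1 CPM in the dox-free libraries. The chemokine receptor CXCR4, a surface marker of definitive endoderm, had 12.2, 9.72 and 8.85 CPM in the dox libraries, against 93.9, 79.5 and 78.8 CPM in the dox-free libraries. No dox library reached any dox-free library for these genes, and the dox levels were 5.70-fold, 3.98-fold and 8.29-fold lower (adjusted p = 2.26e-09, 4.01e-08 and 2.06e-07, edgeR). FOXA2, a pioneer factor of endoderm, went the other way, with 19.6, 16.9 and 17.98 CPM in the dox libraries, against 12.6, 11.9 and 14.1 CPM in the dox-free libraries (log2 fold change 0.48). KRT19, a simple epithelial keratin, and PRDM1, a repressor used in endoderm and germ cells, fell, with log2 fold changes of -1.54 and -1.17.

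EOMES, a T-box factor at the head of streak and endoderm formation, had 36.2, 35.1 and 40.8 CPM in the dox libraries, against 145, 146 and 153 CPM in the dox-free libraries, and was 4.01-fold lower with dox. The organizer factor GSC had 7.25, 7.96 and 8.01 CPM in the dox libraries, against 34.9, 30.5 and 38.2 CPM in the dox-free libraries. Its partner in the organizer, LHX1, had 7.82, 8.83 and 10.7 CPM in the dox libraries, against 40.9, 39.98 and 43.02 CPM in the dox-free libraries. Both were high in all dox-free libraries and low in all dox libraries. MIXL1, a streak homeobox factor, and TBXT, the mesoderm factor brachyury, fell with log2 fold changes of -1.33 and -1.12. The separate cultures were the highest group for both, at 343, 354 and 326 CPM of MIXL1 and 148, 148 and 159.8 CPM of TBXT. By contrast, GSC and LHX1 were lowest in separate culture, at 4.58, 3.77 and 5.97 CPM of GSC, and GATA6 stood at 16.7, 18.1 and 16.4 CPM there. KDR, a receptor of mesodermal and endothelial cells, was the streak and mesoderm gene not called.

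Of 15 expressed core pluripotency genes, 11 rose, 1 fell and 3 were not called, with a median of 0.35. POU5F1, the central pluripotency factor, had 163, 187 and 194 CPM in the dox libraries, against 161, 205 and 229 CPM in the dox-free libraries, and its overlapping values gave no call (log2 fold change -0.15, SE 0.11, adjusted p = 0.381, edgeR). SOX2, its partner, had 199.99, 202 and 218 CPM in the dox libraries, against 150.2, 154 and 138 CPM in the dox-free libraries, and rose 1.39-fold. NANOG fell, with 133, 133 and 129.9 CPM in the dox libraries, against 157, 157 and 150.4 CPM in the dox-free libraries. LIN28A, an RNA-binding protein of stem cells, was not called (-0.01). The larger rises were those of PRDM14, a repressor of differentiation (1.81), L1TD1, a stem cell RNA-binding protein (1.03), and the DNA methyltransferase DNMT3B (0.94). FOXD3 was the remaining gene without a call.

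The 18 primed pluripotency genes split evenly, with 7 higher, 7 lower and 4 not called. Their median of -0.02 turned positive without dox replicate 3 (0.03) or dox-free replicate 2 (0.07). OTX2, a homeobox factor of the primed state, had 40.1, 34.8 and 38.4 CPM in the dox libraries, against 101, 82.05 and 86.00 CPM in the dox-free libraries. ZIC2 fell (-0.70), as did the intermediate filament VIM, at 1275 ± 36.1 CPM with dox, against 2859.6 ± 174 CPM dox-free (SD, n = 3 each). CD24, a surface glycoprotein, and the growth factor FGF2 rose (0.82 and 0.63). Of 17 naive pluripotency genes in the table, KLF5 alone passed the 10 CPM rule, and it fell (-1.17). Among neural lineage genes, SOX11 fell (-0.33) and 4 of 5 expressed genes were not called. Of the amnion and trophectoderm list, KRT8 and KRT18 were expressed and both fell (-0.52 and -0.32).

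**Figure D4:**
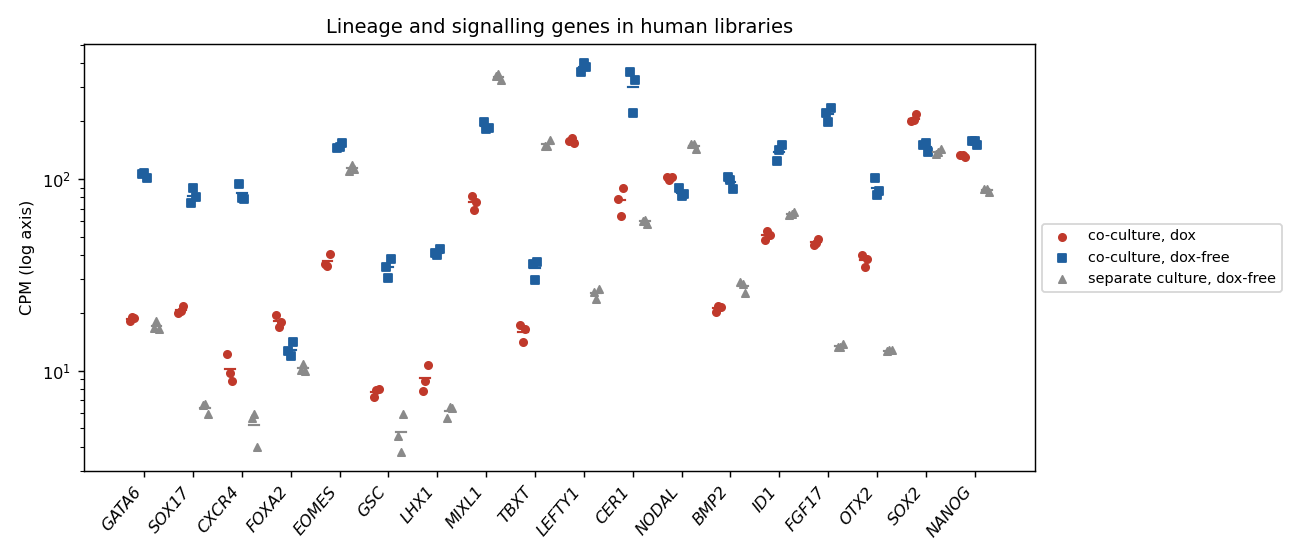
CPM on a log axis of 18 lineage, signalling and pluripotency genes in the human libraries, 3 points per group with a bar at the mean. GATA6, SOX17, CXCR4, EOMES, GSC and LHX1 show dox points well below dox-free points, FOXA2, NODAL and SOX2 show them above, and TBXT and MIXL1 are highest in separate culture.

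Ligand, antagonist and feedback genes of the NODAL, BMP and FGF pathways were lower with dox more often than higher. Of 16 NODAL and activin pathway genes, 9 fell, 2 rose and 5 were not called (median -0.25). Of 16 BMP and TGF-beta genes, 11 fell, 1 rose and 4 were not called (median -0.63). Of 23 FGF and ERK genes, 13 fell, 5 rose and 5 were not called (median -0.30). ID4 and TGFBI, of the BMP and TGF-beta list, met the level rule through dox-free libraries alone and FGF19 through dox libraries alone. Of the 13 BMP and TGF-beta genes at 10 CPM in all 6 libraries, 8 fell and 1 rose, with a median of -0.53.

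Among ligands, NODAL itself rose slightly, with 103, 99.00 and 102 CPM in the dox libraries, against 89.4, 81.9 and 82.97 CPM in the dox-free libraries. BMP2 had 20.2, 21.8 and 21.4 CPM in the dox libraries, against 102, 99.1 and 89.02 CPM in the dox-free libraries, and was 4.63-fold lower with dox (adjusted p = 6.04e-09, edgeR). TGFB1 had 36.5, 40.7 and 46.6 CPM in the dox libraries, against 133, 115 and 158 CPM in the dox-free libraries, a log2 fold change of -1.73. No dox value of these ligands fell inside the dox-free range, and NODAL was the ligand that rose. FGF17, a ligand of the gastrulating embryo, had 45.1, 46.2 and 48.8 CPM in the dox libraries, against 221, 198 and 233 CPM in the dox-free libraries. FGF19, a metabolic and embryonic ligand, had 15.8, 15.2 and 15.9 CPM in the dox libraries, against 4.26, 5.08 and 4.88 CPM in the dox-free libraries. The FGF ligands thus moved in opposite directions, each without overlap.

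The NODAL antagonists LEFTY1 and CER1, both induced by the pathway, fell. LEFTY1 had 157, 164 and 155 CPM in the dox libraries, against 362, 400.3 and 383 CPM in the dox-free libraries, and may share reads with its near copy LEFTY2. CER1 had 78.3, 64.2 and 90.05 CPM in the dox libraries, against 361, 221 and 326 CPM in the dox-free libraries. CER1 varied more between dox-free libraries, yet no dox library came near them. SMAD7, a feedback inhibitor induced by the pathway, fell 1.89-fold. The activin receptor genes ACVR1B and ACVR2A fell with smaller log2 fold changes (-0.25 and -0.33), and the transducers SMAD2 and SMAD3 and the NODAL cofactor FOXH1 were not called. ID1, the standard BMP target, had 48.1, 53.5 and 50.7 CPM in the dox libraries, against 124, 141 and 149.7 CPM in the dox-free libraries. ID2, ID4, SMAD6 and BAMBI, further BMP targets, fell (-0.83, -0.82, -1.40 and -1.0), while ID3 and BMP4 were not called and BMP7 rose (0.50).

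DUSP6, a phosphatase that restrains ERK, averaged 186 ± 4.07 CPM with dox, against 319 ± 14.8 CPM dox-free (SD, n = 3 each). The ERK feedback genes DUSP4, SPRY2, SPRY4 and IER3 fell too (-1.38, -0.79, -0.34 and -1.38). The ERK-regulated factors ETV4 and ETV1 rose (0.17 and 0.27). Leaving out any dox replicate lowered the 5 rises of this list to 3. WNT pathway genes were mixed, with 5 higher, 6 lower and 7 not called of 18 (median -0.21), and the rises numbered 3 without dox replicate 1. DKK1 met the level rule through dox-free libraries alone, and the 16 WNT genes at 10 CPM in all 6 libraries had 5 rises, 4 falls and a median of -0.10. The receptor FZD5 had 102, 101 and 101 CPM in the dox libraries, against 203, 215 and 198 CPM in the dox-free libraries. The receptor FZD7 had 283, 284 and 288 CPM in the dox libraries, against 205, 205 and 204 CPM in the dox-free libraries. The receptors thus moved in opposite directions, each without overlap. The ligand WNT3 fell (-1.01), and the negative feedback targets AXIN2 and ZNRF3 rose (0.40 and 0.44).

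Immediate early genes moved in both directions, with 5 of 20 higher, 9 lower and 6 not called (median -0.24). FOSB met the level rule through dox libraries alone, and of the 16 genes at 10 CPM in all 6 libraries 3 rose and 7 fell. FOSB had 12.5, 12.7 and 11.5 CPM in the dox libraries, against 0.978, 1.30 and 2.80 CPM in the dox-free libraries. EGR1 had 27.3, 24.03 and 27.5 CPM in the dox libraries, against 8.60, 11.3 and 10.3 CPM in the dox-free libraries. FOS had 54.8, 59.6 and 59.5 CPM in the dox libraries, against 28.6, 34.1 and 30.8 CPM in the dox-free libraries. For these rapidly induced factors every dox library was higher, and the separate cultures were higher still, at 73.03, 73.9 and 73.1 CPM of EGR1. FOSL2, JUND and BTG2 fell (-1.42, -0.75 and -1.34). Of 18 YAP and TEAD target genes, 9 fell, 1 rose and 8 were not called (median -0.24). ANKRD1, a mechanically regulated nuclear protein, had 26.1, 29.8 and 28.9 CPM in the dox libraries, against 132, 94.5 and 109 CPM in the dox-free libraries. CCN2, a matricellular protein, averaged 382 ± 13.7 CPM with dox, against 475 ± 10.8 CPM dox-free (SD, n = 3 each), a fall, while its relative CCN1 was not called (-0.15).

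Genes controlled by ATF4 in amino acid shortage were higher with dox. Of 28 expressed genes, 22 rose, 3 fell and 3 were not called, with a median log2 fold change of 0.70. SESN2, also in the p53 list, met the level rule through dox libraries alone, and of the 26 ATF4 genes at 10 CPM in all 6 libraries 20 rose and 3 fell. ASNS, asparagine synthetase, had 246, 260.4 and 247 CPM in the dox libraries, against 93.7, 70.2 and 81.7 CPM in the dox-free libraries, and rose 3.04-fold (adjusted p = 1.58e-07, edgeR). CHAC1, which breaks down glutathione, had 43.8, 36.4 and 43.5 CPM in the dox libraries, against 11.4, 11.9 and 11.7 CPM in the dox-free libraries. SLC7A11, which imports cystine, had 59.3, 59.3 and 62.7 CPM in the dox libraries, against 21.6, 19.1 and 19.5 CPM in the dox-free libraries. Dox and dox-free values did not overlap for these genes, and the separate cultures were lower than dox, at 47.5, 45.3 and 45.2 CPM of ASNS. ATF4 mRNA itself averaged 527 ± 15.5 CPM with dox, against 332 ± 34.5 CPM dox-free (SD, n = 3 each).

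The serine synthesis enzymes PSAT1, PHGDH and PSPH rose together (1.01, 0.78 and 0.65), as did the one-carbon enzymes SHMT2 and MTHFD2 (0.78 and 0.54). The aminoacyl-tRNA synthetases AARS1, GARS1, NARS1 and SARS1 rose (0.99, 0.88, 0.53 and 0.53), and WARS1 fell (-0.21). GDF15, a stress cytokine, and DDIT4, an inhibitor of mTORC1 that hypoxia also induces, were the other falls (-0.58 and -0.57).

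The unfolded protein response of the endoplasmic reticulum moved little: 1 of 20 genes rose, 3 fell and 16 were not called, and the median of 0.00 turned negative under upper quartile scaling (-0.03). HSPA5, its main chaperone, had 694, 746 and 711 CPM in the dox libraries, against 567, 527 and 574 CPM in the dox-free libraries, the rise of the list. DNAJB9, a co-chaperone, fell (-0.67). The remaining falls were PDIA6 and SEL1L (-0.22 and -0.28), whose calls were lost without dox-free replicate 2, that of SEL1L also without dox replicate 3. Cytosolic heat shock genes rose in 13 of 18 cases, with 1 fall and 4 not called (median 0.51). HSPH1, a nucleotide exchange factor, had 144, 161 and 142 CPM in the dox libraries, against 71.8, 69.4 and 70.8 CPM in the dox-free libraries. HSPA8, the constitutive HSP70, rose 1.66-fold. The small heat shock protein HSPB1 was the fall (-0.69).

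Cholesterol synthesis genes rose in 12 of 28 cases, fell in 3 and were not called in 13 (median 0.21). HMGCS1 averaged 880.3 ± 11.5 CPM with dox, against 567 ± 23.1 CPM dox-free (SD, n = 3 each), a rise, while MSMO1 and DHCR7 were among the falls (-0.44 and -0.37). Of 25 p53 pathway genes, 4 rose, 10 fell and 11 were not called (median -0.15). CDKN1A, the p53-induced cell cycle inhibitor, had 55.1, 53.8 and 54.5 CPM in the dox libraries, against 82.8, 89.2 and 94.3 CPM in the dox-free libraries, without overlap. The p53 targets MDM2 and RRM2B were not called. Apoptosis regulators were divided, with 4 of 23 higher, 6 lower and 13 not called (median 0.13). The caspases CASP2 and CASP6 rose 1.42-fold and 1.51-fold, and APAF1, the apoptosome scaffold, and BAX, a pore-forming effector, fell 1.54-fold and 1.28-fold.

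Genes for DNA replication and for making ribosomes were higher with dox, whereas genes for ribosomal proteins were mostly lower or not called. Of 30 replication and G1/S genes, 25 rose, 3 fell and 2 were not called (median 0.53). CDC6, which loads the replicative helicase, had 107, 105 and 113 CPM in the dox libraries, against 60.8, 54.4 and 59.7 CPM in the dox-free libraries, and rose 1.83-fold. The helicase subunits MCM3, MCM4 and MCM5 rose (0.86, 0.74 and 0.87), and MCM5 had 219, 205 and 246 CPM in the dox libraries, against 119, 114 and 129 CPM in the dox-free libraries. The falls were TYMS, which makes thymidylate, and the cyclins CCND2 and CCND3 (-0.47, -0.83 and -0.36). Of 30 mitosis and spindle genes, 19 rose, 2 fell and 9 were not called (median 0.26). KIF23, a cytokinesis motor, averaged 95.8 ± 3.17 CPM with dox, against 55.3 ± 1.34 CPM dox-free (SD, n = 3 each), PTTG1 and CENPA fell (-0.52 and -0.25), and CDK1 was not called (-0.10).

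Of 31 ribosome biogenesis genes and MYC targets, 23 rose, 2 fell and 6 were not called (median 0.57). NOP56, a core protein of box C/D ribonucleoproteins, had 234, 222 and 239 CPM in the dox libraries, against 93.2, 73.7 and 100.1 CPM in the dox-free libraries, and rose 2.57-fold (adjusted p = 7.92e-07, edgeR). NCL, nucleolin, and RRS1, an assembly factor, rose (0.70 and 1.34). MYC itself was not called (-0.04), and MXI1, a MYC antagonist that HIF induces, had 18.3, 20.95 and 19.00 CPM in the dox libraries, against 70.96, 73.9 and 70.6 CPM in the dox-free libraries, without overlap. Of 78 cytosolic ribosomal protein genes, 39 fell, 1 rose and 38 were not called (median -0.22). RPL10 had 1539, 1562 and 1534 CPM in the dox libraries, against 1988, 2116 and 1976 CPM in the dox-free libraries, and the rise was that of RPL4 (0.26). RPS29, a small-subunit protein, had 327, 420.3 and 315 CPM in the dox libraries, against 481, 782 and 564 CPM in the dox-free libraries. The summed level of the list was highest in replicate 2 of each group, at 80109 CPM with dox and 88448 CPM dox-free. Ribosomal protein genes have many processed pseudogenes, so their counts are uncertain where reads could be shared.

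Extracellular matrix genes were lower with dox. Of 23 expressed collagens and matrix genes, 15 fell, 4 rose and 4 were not called (median -0.94). LOX met the level rule through dox-free libraries alone, and of the 21 genes at 10 CPM in all 6 libraries 14 fell and 3 rose. COL5A1, a fibrillar collagen chain, had 62.7, 67.5 and 71.7 CPM in the dox libraries, against 228, 246 and 273 CPM in the dox-free libraries. COL1A2, a chain of type I collagen, had 145, 141 and 141 CPM in the dox libraries, against 372, 362 and 373 CPM in the dox-free libraries. LOX, which crosslinks collagen and is induced in hypoxia, had 2.88, 2.96 and 1.98 CPM in the dox libraries, against 42.9, 38.5 and 40.1 CPM in the dox-free libraries. LOX was 15.7-fold lower with dox (log2 fold change -3.97, SE 0.45, adjusted p = 0.000396, edgeR). TNC and FN1, adhesive glycoproteins, fell (-1.87 and -1.06), and VCAN, THBS1, LAMB1 and COL9A1 rose (0.42, 0.62, 0.28 and 0.62).

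Markers of fibroblasts, the feeder cell type, moved with the matrix genes, and several are matrix genes themselves. Of 9 expressed fibroblast markers 8 fell and 1 was not called, with a median of -0.59, ACTA2 and LOX having met the level rule through dox-free libraries alone. The whole list of 15 summed to 1687 to 1784 CPM with dox, against 2487 to 2752 CPM dox-free. DCN, the fibroblast proteoglycan decorin, was at 0 CPM in all 6 human libraries. COL3A1 did not exceed 0.0161 CPM with dox and 0.210 CPM dox-free, and LUM, lumican, did not exceed 0.0503 CPM with dox and stood at 0.510 to 1.68 CPM dox-free. In the mouse table of the same co-cultures, decorin stood at 15.2 to 19.5 CPM with dox, against 14.5 to 16.1 CPM dox-free. The mouse collagen gene Col3a1 stood at 98.7 to 107 CPM with dox, against 3.81 to 4.45 CPM dox-free, and mouse lumican at 5.61 to 8.61 CPM with dox, against 0.477 to 1.59 CPM dox-free. Of 9 matched fibroblast markers, 7 rose and 1 fell with dox in the mouse table, with a median of 1.47. The part of feeder RNA in the human matrix values was not tested.

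Adhesion and epithelial-mesenchymal transition genes included 6 higher, 9 lower and 4 not called of 19 (median -0.12). The mesenchymal genes CDH2 and SNAI1 fell (-0.74 and -1.16), the epithelial genes EPCAM and ESRP1 rose (0.36 and 0.87), and CDH1, E-cadherin, was not called (0.03). The integrin ITGAV fell 1.82-fold and the laminin receptor ITGA6 rose 1.48-fold. Of 26 actin cytoskeleton genes and SRF targets, 11 fell, 3 rose and 12 were not called (median -0.11), and ACTA2 met the level rule through dox-free libraries alone. TAGLN2, an actin-binding protein, had 359.8, 385 and 349 CPM in the dox libraries, against 799, 841 and 827 CPM in the dox-free libraries, while SRF, the factor itself, rose 1.56-fold. Of 20 metallothionein and oxidative stress genes, 9 fell, 4 rose and 7 were not called (median -0.33). TXNIP, a glucose-responsive inhibitor of thioredoxin and glucose uptake, had 57.4, 61.9 and 61.6 CPM in the dox libraries, against 229, 229 and 239.7 CPM in the dox-free libraries, and its relative ARRDC4, which met the level rule through dox-free libraries alone, fell too (-1.16). Metallothionein genes are near copies of each other, which leaves MT1X (-0.88) and MT2A (-0.75) uncertain.

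Most interferon-stimulated genes were below the level rule, and no common rise was seen. Of 32 listed genes 11 were expressed, of which 3 rose, 4 fell and 4 were not called (median -0.10). SAMHD1 and PARP9 met the level rule through dox libraries alone, and of the 9 genes at 10 CPM in all 6 libraries 1 rose and 4 fell, with a median of -0.29. The falls were IFITM1, IFITM2, IFITM3 and BST2, membrane proteins that restrict viruses and, for IFITM1 and IFITM3, are abundant in stem cells. IFITM1 had 484, 486 and 509 CPM in the dox libraries, against 1126, 1129 and 1121 CPM in the dox-free libraries. BST2 had 35.2, 41.8 and 35.6 CPM in the dox libraries, against 81.4, 95.5 and 88.2 CPM in the dox-free libraries. The IFITM genes resemble each other, so reads may be shared among them. SAMHD1, PARP9 and TRIM25 rose (1.40, 0.68 and 0.55). ISG15, an interferon-induced ubiquitin-like protein, had 12.4, 16.3 and 12.3 CPM in the dox libraries, against 16.8, 17.8 and 15.2 CPM in the dox-free libraries, and was not called (log2 fold change -0.29, SE 0.14, adjusted p = 0.145, edgeR).

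Of 9 expressed RNA-sensing genes, 4 rose, none fell and 5 were not called (median 0.26). ADAR, which edits double-stranded RNA, rose 1.27-fold, the kinase TBK1 1.36-fold and the factor IRF3 1.40-fold. MAVS, the adaptor of RNA sensing on mitochondria, averaged 65.5 ± 2.45 CPM with dox, against 66.01 ± 5.01 CPM dox-free (SD, n = 3 each), and was not called (-0.03). Of 9 expressed NF-kB pathway genes, 2 rose, 6 fell and 1 was not called (median -0.72). ICAM1 and CCL2 met the level rule through dox-free libraries alone, and of the 6 genes at 10 CPM in all 6 libraries 4 fell and 1 rose. The inhibitor NFKBIA, a direct NF-kB target, had 32.1, 27.7 and 25.9 CPM in the dox libraries, against 51.6, 70.3 and 67.9 CPM in the dox-free libraries. The chemokine CCL2 had 5.97, 6.70 and 5.27 CPM in the dox libraries, against 16.8, 14.2 and 12.2 CPM in the dox-free libraries. Neither overlapped between the groups. Of 7 expressed MHC class I genes, of which HLA-E met the level rule through dox-free libraries alone, 3 fell and 4 were not called, with a median of 0.09 that turned negative without dox replicate 2 (-0.01) or dox-free replicate 2 (-0.31). The 3 genes of that list at 10 CPM in all 6 libraries had a median of -0.80, with 2 falls. B2M, the light chain of MHC class I, had 69.96, 74.9 and 58.5 CPM in the dox libraries, against 123, 163 and 121 CPM in the dox-free libraries, without overlap.

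Several of the largest single differences were in genes outside these lists. ARHGEF10, a guanine nucleotide exchange factor, had 43.6, 26.03 and 36.1 CPM in the dox libraries, against 0.810, 0.896 and 0.481 CPM in the dox-free libraries. The dox level was 47.3-fold higher (adjusted p = 0.000778, edgeR), and the separate cultures, at 45.95, 13.4 and 49.01 CPM, were also far above the dox-free co-cultures. CYB5D1 had 15.5, 14.5 and 13.04 CPM in the dox libraries, against 0.475, 0 and 0.907 CPM in the dox-free libraries, with 19.4, 13.5 and 15.7 CPM in separate culture. A dox-free library listed at 0 can be a failed estimate, and the CYB5D1 call was lost without dox replicate 1 or dox-free replicate 1 and in a fit of the 6 co-culture libraries alone. SNTB1, a syntrophin of the dystrophin complex, rose 4.33-fold and GPATCH4, a nucleolar protein, 4.29-fold. ARHGEF10, CYB5D1, SNTB1 and GPATCH4 all met the level rule through dox libraries alone, so they had to differ.

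On the lower side, NPPB, the natriuretic peptide precursor, had 10.5, 12.4 and 11.6 CPM in the dox libraries, against 134, 129 and 144 CPM in the dox-free libraries. ERBB4, a neuregulin receptor, had 3.95, 5.01 and 4.35 CPM in the dox libraries, against 35.6, 32.4 and 33.2 CPM in the dox-free libraries. NRN1, a neuronal surface protein, had 0.272, 0.913 and 0.490 CPM in the dox libraries, against 14.1, 14.1 and 10.7 CPM in the dox-free libraries. Every dox value of these genes was far below every dox-free value. UPK1A, a uroplakin, fell 10.02-fold, CCDC81 10.6-fold, the muscle carbonic anhydrase CA3 7.80-fold and the receptor CNTFR 8.26-fold. CNTFR differed from the others in separate culture, where it was highest, at 28.9, 27.95 and 32.4 CPM. The antisense genes GATA6-AS1 and P3H2-AS1 fell 8.86-fold and 9.33-fold, and without strand their reads cannot be told from those of the genes they face. All genes of this paragraph except NPPB met the level rule through dox-free libraries alone, so they had to differ.

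Markers of other cell types were examined in the human table. Primed pluripotency markers summed to 4960 to 5172 CPM with dox, against 4353 to 4469 CPM dox-free, with 5 of 10 higher, 2 lower and 3 not called. Of 5 expressed definitive endoderm markers, whose sums are given above, 4 fell and 1 rose, with a median of -1.99. Macrophage and blood markers summed to 3.83 to 4.73 CPM with dox, against 19.2 to 20.1 CPM dox-free. LAPTM5, the expressed gene of that list, met the level rule through dox-free libraries alone and accounted for most of the sum, while 13 of its 15 genes stayed under 1 CPM and 5 were at 0. Endothelial markers summed to 143 to 150 CPM with dox, against 156 to 174 CPM dox-free, with 2 of 4 expressed lower, VWF having met the level rule through dox-free libraries alone. Neural markers (1 of 3 expressed lower, 545 to 604 CPM with dox, against 644 to 692 CPM dox-free) and mesoderm markers (1 of 2 lower, 87.3 to 94.97 CPM with dox, against 108 to 125 CPM dox-free) were also lower, and no amnion and trophoblast marker was expressed. The part of such cells in the results above was not tested.

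In the mouse cells of the same co-cultures, fitted separately in their own table, 6723 of 23712 genes were called (28.4%), and 9124 of the expressed human genes were matched to a mouse gene, by symbol except that TBXT was matched to T. The species grew in mixed dishes but did not share libraries, and the difference between their responses was not tested. The sample titles do not say whether both species' libraries came from the same dishes, so the same co-cultures throughout means the same conditions. Of the 9124 matched genes, 2280 were called higher and 1505 lower in the mouse table, a larger part than of all mouse genes. Of 1964 matched genes called in both species, 972 moved in the same direction and 992 in opposite directions. The lists below are examples from that background. Glycolysis was lower in both, with a median of -0.79 over 22 matched genes in human cells and -0.67 in mouse cells, where 19 fell and 2 rose. The hypoxia list had medians of -1.09 in human cells and -0.70 in mouse cells, and the endoderm list had -1.54 in human cells and -1.19 in mouse cells. ATF4 targets had medians of 0.70 in human cells and 0.27 in mouse cells, where 15 of 24 rose and 4 fell. Mitochondrial mRNAs had medians of 1.95 in human cells and 0.47 in mouse cells, where 5 of 12 were called. Other lists had medians of opposite sign: collagens and matrix -0.94 in human cells and 1.47 in mouse cells, and mitosis 0.26 in human cells and -0.22 in mouse cells. Immediate early genes had -0.24 in human cells and 0.50 in mouse cells, and YAP and TEAD targets -0.24 in human cells and 0.54 in mouse cells. The feeders are also mouse cells, so the mouse values of every list can hold feeder RNA, and its part was not tested. DNA replication genes, at 0.53 in human cells, had a median of -0.02 in mouse cells, where 2 of 30 rose and 8 fell.

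**Figure D5:**
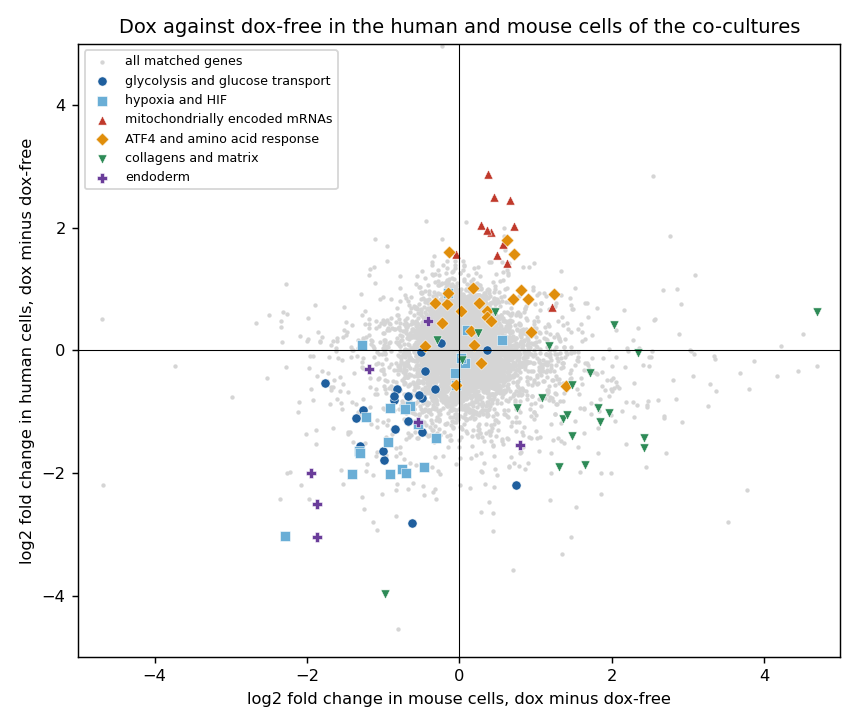
Log2 fold change with dox minus dox-free in human cells (vertical axis) against that of the same-symbol gene in mouse cells of the same co-cultures (horizontal axis), all matched genes in grey and 6 gene lists in colour, with 14 genes beyond the axis limits not shown. Glycolysis and hypoxia genes gather at lower left and matrix genes at lower right, as their medians in the text state.

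The rule's threshold left near neighbours on each side. Just inside were NUDT19, FBXL6 and BTF3L4P2, whose third-highest library stood at 10.001, 10.003 and 10.003 CPM. Just outside were HNRNPLP2, IFI16 and FAM86EP, at 9.994, 9.986 and 9.986 CPM. FBXL6, an F-box protein gene, had 10.00, 11.1 and 10.6 CPM in the dox libraries, against 3.37, 3.46 and 6.53 CPM in the dox-free libraries, and so was included through its dox libraries. IFI16, a DNA sensor, had 3.62, 5.96 and 5.66 CPM in the dox libraries, against 13.5, 9.99 and 10.5 CPM in the dox-free libraries, and was left out.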

How the data were processed

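RNA sequencing gave 21 libraries, of which the 9 human ones (3 groups of 3) were used in the fit. The authors deposited 1 table per species of estimated counts per gene, not scaled between libraries. They are whole numbers and are taken as estimates because the tools named include StringTie and no read counter. The tools in the submitters' processing notes are HISAT2 2.1.0, DESeq2 1.38.3, StringTie 2.1.7 and Trim Galore 0.6.10, and the builds are GRCh38 and GRCm39, with no roles stated. Neither the separation of human from mouse reads nor the use of strand in counting is given in the sources.

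The estimated counts were fitted with edgeR 4.0.16 in R 4.3.3 (filterByExpr with minimum counts of 10 and 15, TMM scaling, robust quasi-likelihood fit on all 9 human libraries, contrast dox minus dox-free). P-values were adjusted by Benjamini-Hochberg over all 24165 genes tested, and a gene was called at an adjusted p under 0.05. CPM are counts over library totals, not per gene length. Standard errors were taken as the absolute log2 change divided by the root of its F statistic. The mouse table was fitted in the same way.

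The genes, 36 lists and 8 marker lists were chosen with earlier results of these data known, and the lists are described by counts and medians with no test. The named genes are the 12 with the largest called changes each way without overlap, up to 4 called genes with the smallest p in each list with 3 or more calls, and 20 fixed genes, 159 in all. Clone names, LOC and LINC symbols, pseudogenes recognised by symbol and read-through pairs were left out of the 12 largest each way. Further members named in the text were chosen after their values were seen. The fit was tested on simulated data. No 2 libraries agreed within sampling noise. Alternatives, 17 in all, include DESeq2 1.42.0, other scalings and filters, a replicate block and leaving out each of 6 libraries. Promoter sequences are not analysed here. Some list members are not reported here.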

Additional observations from a re-analysis of the deposited data

Results flagged for a closer look

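The 12 largest changes each way and the fixed genes were compared with their matched mouse genes of the same co-cultures. For 9 of them all 3 human dox libraries lay on 1 side of the dox-free libraries and the mouse ones on the other. The remaining named genes are not in this count. COL1A2, which is among those, had opposite sides too. It had 140.6 to 144.6 CPM with dox, against 362 to 373 CPM dox-free in human cells. In mouse cells it had 79.7 to 84.0 CPM with dox, against 28.8 to 31.6 CPM dox-free. Opposite directions were no rarer than shared ones, at 992 of the 1964 matched genes called in both species. The 12 largest each way were chosen for human values without overlap, so for them the human side was set in advance. ARHGEF10, SNTB1, UPK1A and CNTFR, all from that choice, also met the level rule through 1 group alone. The share of all matched genes with such opposite sides was not computed. The difference between the species was not tested for any of the 9 genes. ARHGEF10 had a log2 fold change of 5.57 in human cells and -0.33 in mouse cells, where it was not called (adjusted p = 0.0737, edgeR). SNTB1, a syntrophin, had 2.12 in human cells and -0.44 in mouse cells. DNMT3B, the DNA methyltransferase, had 0.94 in human cells and -0.49 in mouse cells.

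The other genes were lower in human cells and higher in mouse cells. UPK1A had a log2 fold change of -3.32 in human cells and 1.34 in mouse cells, and CNTFR one of -3.05 in human cells and 1.47 in mouse cells. CDKN1A, the cell cycle inhibitor, had -0.72 in human cells and 0.89 in mouse cells. TBXT, matched to the mouse gene T, had -1.12 in human cells and 1.84 in mouse cells. CCN2, a YAP target, had -0.33 in human cells and 1.09 in mouse cells. COL1A1, a chain of type I collagen, had -1.02 in human cells and 1.97 in mouse cells, whose feeders are also mouse cells.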

How the results depend on the processing

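Total counts of called genes moved by over 1.5 times in the test against a fold of 1.5. It called 1182 of all genes and 752 of the expressed genes. Among these were 16 glycolysis genes lower, 15 hypoxia genes lower, 12 mitochondrial mRNAs higher, 12 ATF4 targets higher and no ribosomal protein gene. Other scalings, filters, tools and fits gave 5614 to 7639 genes and 4331 to 5598 expressed genes, and upper quartile scaling and the filter of 10 CPM turned the majority of called expressed genes to lower. Leaving out 1 library gave 5374 to 6674 genes and 4150 to 4965 expressed genes. Expressed genes by a mean of 10 CPM gave 4923 calls and by 1 CPM in 3 libraries 6153. Leaving mitochondrial genes and their pseudogenes out before scaling, an alternative chosen after seeing the data, gave 6624 and 5008 calls. A fit with the replicate block gave 7209 and 5598 calls. Same-numbered dox and dox-free libraries correlated at -0.0023, 0.203 and 0.233 in their deviations from the group means. The crossed pairs of replicates 2 and 3 correlated at -0.209 and -0.228, and dox replicate 1 at -0.016 to 0.017 with each dox-free library. Deviations within a group cancel out, so with replicate 1 nearly uncorrelated the crossed values follow from the same-numbered ones. Not every library correlated best with its own number, and the numbers are not stated to mark pairs, so they were not taken to do so. An effect shared by libraries of the same number was not tested. Of the list medians, 3 changed sign, those of primed pluripotency (-0.07 to 0.07), the unfolded protein response (-0.03 to 0.04) and MHC class I (-0.31 to 0.20). Counts of called genes per list and direction moved by over 1.5 times, or from none, in 123 cases across the alternatives. In 1337 cases they did not. Of the moves, 57 came in the test against a fold of 1.5, 10 without dox replicate 1, 9 without dox replicate 3 and 7 under upper quartile scaling. Falls among nuclear respiratory chain genes numbered 5 in place of 8 without dox replicate 1, dox replicate 3 or dox-free replicate 2. POU5F1 was called without dox-free replicate 1 and ISG15 without dox replicate 2. No named gene called in the main fit changed direction. LIN28A and MAVS, which were not called, changed sign between alternatives, at -0.06 to 0.07 and -0.09 to 0.03. With totals of 117.56 M counts or more, a gene at 10 CPM rests on more than 1000 estimated counts a library, in 3 libraries a group. How far the number of libraries, depth and errors of estimation each limit its precision was not tested.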

Other observations

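Genes outside the lists, chosen here after their values were seen, also differed by 2-fold or more. PLOD2, a lysyl hydroxylase of collagen that hypoxia induces, had 79.5, 87.7 and 76.5 CPM in the dox libraries, against 539, 539 and 486 CPM in the dox-free libraries. STC1, a secreted glycoprotein, and LGALS1, a galectin, fell with log2 fold changes of -2.25 and -2.04. GATM, the first enzyme of creatine synthesis, had 21.8, 20.3 and 16.5 CPM in the dox libraries, against 125, 116 and 106 CPM in the dox-free libraries. The cystatin gene CST1 had 99.6, 104 and 94.8 CPM in the dox libraries, against 541, 613 and 623 CPM in the dox-free libraries, and its near copy CST2 fell too (-2.61), though reads may be shared between them. For PLOD2, GATM and CST1 every dox library lay below every dox-free library. CST2 met the level rule through dox-free libraries alone. The separate cultures stood near the dox level for CST1, at 113, 122 and 111 CPM, and below it for GATM, at 9.07, 9.63 and 7.67 CPM.

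Several transcription factors and signalling genes were low with dox. SOX18, an endothelial factor, had 1.47, 0.993 and 2.81 CPM in the dox libraries, against 12.4, 11.1 and 12.9 CPM in the dox-free libraries, and NR0B1, an orphan nuclear receptor, had 2.71, 2.40 and 3.28 CPM in the dox libraries, against 21.2, 20.5 and 21.7 CPM in the dox-free libraries. DIO3, which inactivates thyroid hormone, fell 7.62-fold, and the WNT antagonist FRZB had a log2 fold change of -2.32. SOX18, NR0B1, DIO3 and FRZB met the level rule through dox-free libraries alone, so they had to differ. On the higher side, MIR17HG, the host gene of a microRNA cluster that MYC activates, had 19.9, 22.1 and 20.5 CPM in the dox libraries, against 4.69, 7.25 and 4.94 CPM in the dox-free libraries. MIR17HG met the level rule through dox libraries alone. MAT2A, which makes S-adenosylmethionine, had 244, 215 and 240.5 CPM in the dox libraries, against 87.9, 79.02 and 90.6 CPM in the dox-free libraries, with the separate cultures highest at 382, 389.6 and 386 CPM. The neuregulin receptor ERBB3 rose 2.50-fold, while its relative ERBB4 fell 7.69-fold. KIF1A, an axonal motor, had 59.6, 54.8 and 64.2 CPM in the dox libraries, against 22.01, 19.1 and 23.9 CPM in the dox-free libraries, above both dox-free groups, since the separate cultures had 19.3, 20.8 and 23.5 CPM.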
